A study of Mus musculus with 13 samples.

Results

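The mRNAs of 8 genes of cholesterol synthesis were followed across 3 mouse models of neuroblastoma, a childhood tumour of the sympathetic nervous system, and normal adrenal gland. The members are 7 enzymes, Hmgcs1, Idi1, Fdps, Fdft1, Sqle, Lss and Dhcr7, and the transcription factor Srebf2. They were chosen by name, and every probe set that carries 1 of these symbols alone was taken. This gave 8 of the 18193 genes measured and 20 of the 34945 probe sets with a single gene symbol. No receptor or carrier of cholesterol uptake is among them, so uptake is described from a separate list of genes further on.

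The study measured 13 Affymetrix mouse expression arrays of bulk tissue, all from mice of the C57BL/6 strain. Tumours came from transgenic mice that express mutated ALK (mutALK, a receptor tyrosine kinase, 3 arrays), MYCN (a transcription factor, 4 arrays) or both (double transgenic, 3 arrays) in the neural crest. These mice were killed once a tumour could be felt, and the animals' ages are not given in the labels. Normal adrenal tissue (3 arrays) was the control, and the comparison of the tumour types asks how expression differs by the driving oncogene. The promoter of the transgenes and the mutation in ALK are not stated, and the labels leave unsaid whether the arrays of a group come from separate animals. P-values therefore measure the spread between these samples. In bulk tissue, fewer cells of a type and less RNA per cell cannot be told apart.

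Cholesterol is built from acetyl-CoA through mevalonate, isoprenoid diphosphates, squalene and lanosterol. When sterols in the endoplasmic reticulum run low, SREBP2, the protein of Srebf2, is cut free by proteases of the Golgi and switches on the genes of this route together. The adrenal cortex needs cholesterol as the precursor of its steroid hormones, and growing tumour cells need it for membranes.

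Some arrays stood apart from others of their group. The mean of 13 measured liver genes (of 15 listed, among them Alb and Apoa1) lay between 8.74 and 11.78 on 5 arrays (mutALK 1 and 3, MYCN 2, adrenal 2 and double transgenic 1) and between 4.73 and 5.94 on the other 8. Adrenal 2 also had the highest mean of 9 neuronal genes in its group, 9.98, where the other adrenal arrays were at 5.31 and above and the tumours at 11.24 to 12.43. The list of 9 adrenal cortex genes had means of 12.06 to 13.23 on the adrenal arrays and 5.2 to 5.66 on 9 tumour arrays, with double transgenic 1 at 7.07. The adrenal label was thus borne out by its cortex markers on all 3 arrays. Sympathoadrenal genes, 9 of 10 measured, had means of 11.58 to 12.02 on the mutALK, 10.12 to 10.50 on the MYCN and 10.48 to 11.09 on the double transgenic arrays.

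Levels below are RMA values on the log2 scale, and a difference is the mean of the first group minus that of the second, ± SE, also on the log2 scale. Each gene is read by its brightest probe set unless another is named, and a change is called at an adjusted p under 0.05 (limma, Benjamini-Hochberg over all 18193 genes). All groups share an estimate of each gene's spread. Leaving out an array can therefore move a call between groups that it does not belong to, while their difference stays the same. Levels of different genes are not compared, because probe sets differ in how brightly they bind.

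MYCN tumours had less mRNA of the cholesterol enzymes than mutALK tumours. The levels of 7 of the 8 members, that is of every enzyme, were higher on all 3 mutALK arrays than on all 4 MYCN arrays, a separation in that direction that 19% of all genes showed. By the fit, 5 members were called higher in mutALK than in MYCN tumours (Hmgcs1, Idi1, Fdft1, Fdps and Lss), where 13.6% of all genes were, and 0 were called lower, against 17.2% of all genes. The median difference of the 8 members was 0.90, beside 0.003 for all genes. Srebf2, by its brightest probe set, was the member that did not separate these groups. Without mutALK 2 or mutALK 3, in turn, 3 members were called in place of 5.

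**Figure D1:**
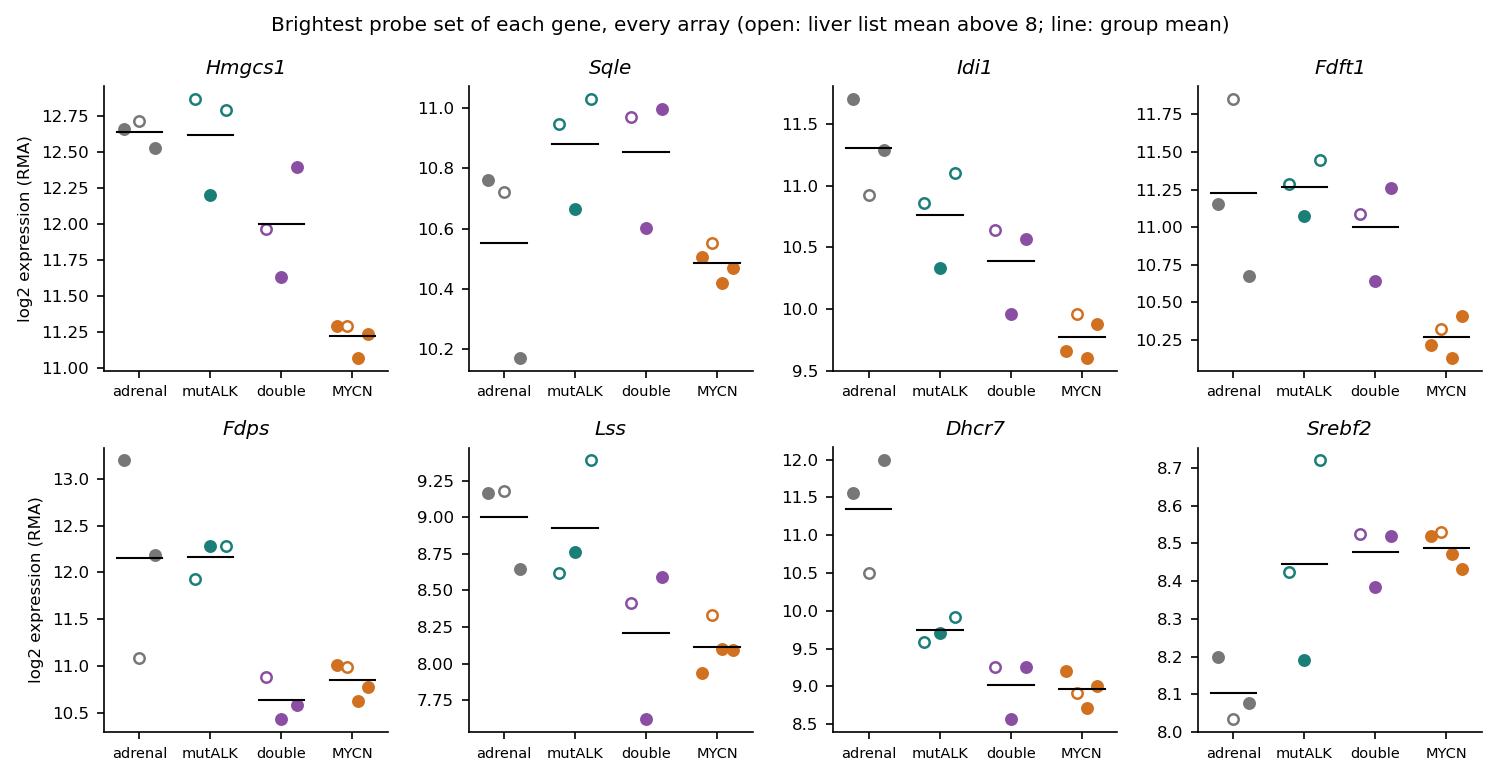
Each panel plots 1 member's level (RMA, log2) on every array by its brightest probe set, with a point per array (open where the liver gene mean was above 8) and a line at the group mean, for adrenal gland, mutALK, MYCN and double transgenic tumours. In the panels of the 7 enzymes all MYCN points lie below all mutALK points, as for Hmgcs1 with 11.07 to 11.29 against 12.20 to 12.87, while the Srebf2 panel shows overlapping tumour groups.

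Hmgcs1 makes HMG-CoA from acetyl-CoA units at the head of the route. On the mutALK arrays it read 12.87, 12.20 and 12.79, and on the MYCN arrays 11.29, 11.29, 11.07 and 11.24. The adrenal arrays read 12.66, 12.72 and 12.53, and the double transgenic arrays 11.96, 11.63 and 12.39. MYCN thus lay below every other array, the double transgenic tumours overlapped mutALK only through array 3, and mutALK straddled adrenal. The difference between mutALK and MYCN was 1.40 ± 0.19 (2.63-fold, adjusted p = 0.000288). Hmgcs1 was 1.41 ± 0.19 lower in MYCN than in adrenal (a difference of -1.41, adjusted p = 6.82e-05) and differed by -0.02 ± 0.20 between mutALK and adrenal (95% interval -0.46 to 0.43, adjusted p = 0.965).

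In double transgenic tumours Hmgcs1 lay between the single models. It was higher than in MYCN tumours by 0.77 ± 0.19 (adjusted p = 0.0223) and lower than in adrenal by a difference of -0.64 ± 0.20 (adjusted p = 0.0216). Against mutALK the difference was -0.62 ± 0.20 and was not called (adjusted p = 0.0634). The call against MYCN was lost without MYCN 2, 3 or 4 or double transgenic 1 or 3, and that against adrenal without adrenal 1 or 2 or double transgenic 1 or 2. The difference from mutALK was called without mutALK 2 or double transgenic 3. Single arrays thus decided these calls, while that of mutALK against MYCN held under all 26 alternatives, with differences of 1.0 to 1.61.

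Of the members, Hmgcs1, Idi1, Lss, Dhcr7 and Srebf2 have promoter sequences in the RefSeq table used here (build GRCm38.p6); Sqle, Fdft1 and Fdps are named only. The 250 bases before the start of the genes below, all on the plus strand, are shown because SREBP2, the protein of Srebf2, switches on genes of this route. Whether it did so in these tissues was not tested. They are chr13:119690101-119690350 for Hmgcs1, chr13:8885356-8885605 for Idi1, chr10:76531355-76531604 for Lss and chr15:82147019-82147268 for Srebf2, written from 5′ to 3′. Capitals mark matches, on either strand, to the sterol element TCACNCCAC, to its shorter form TCACCCCA, to the NF-Y box CCAAT and to the Sp1 box GGGCGG.
Hmgcs1: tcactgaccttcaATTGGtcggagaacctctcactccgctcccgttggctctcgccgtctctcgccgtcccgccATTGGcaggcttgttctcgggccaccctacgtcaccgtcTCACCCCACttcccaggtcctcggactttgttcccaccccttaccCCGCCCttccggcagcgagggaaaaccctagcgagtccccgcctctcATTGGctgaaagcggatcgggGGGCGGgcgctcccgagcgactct
Idi1: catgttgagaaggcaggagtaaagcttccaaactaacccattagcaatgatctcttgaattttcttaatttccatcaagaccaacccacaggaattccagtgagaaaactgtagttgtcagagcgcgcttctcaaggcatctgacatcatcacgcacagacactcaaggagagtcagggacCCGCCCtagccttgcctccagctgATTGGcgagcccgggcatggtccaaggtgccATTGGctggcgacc
Lss: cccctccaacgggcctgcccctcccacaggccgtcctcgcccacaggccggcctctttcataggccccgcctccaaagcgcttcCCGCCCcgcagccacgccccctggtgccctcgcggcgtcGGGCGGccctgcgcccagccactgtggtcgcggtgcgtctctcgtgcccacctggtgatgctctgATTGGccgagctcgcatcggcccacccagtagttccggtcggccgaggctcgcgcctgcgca
Srebf2: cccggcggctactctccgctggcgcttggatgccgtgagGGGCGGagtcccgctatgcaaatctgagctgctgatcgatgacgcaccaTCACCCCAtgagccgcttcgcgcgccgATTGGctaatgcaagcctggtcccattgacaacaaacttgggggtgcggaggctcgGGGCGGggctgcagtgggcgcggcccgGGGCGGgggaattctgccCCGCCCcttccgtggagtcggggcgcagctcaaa

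The Hmgcs1 window holds 1 full sterol element, TCACCCCAC, 137 bases before the start. It also holds 3 NF-Y boxes and 2 Sp1 boxes, the motifs of factors that work beside SREBP. The full element was found in 1.05% of the 32841 windows of this length in the table, the NF-Y box in 33.9% and the Sp1 box in 32.7%. Idi1 holds 2 NF-Y boxes, 45 and 14 bases before its start, and 1 Sp1 box. Lss holds 1 NF-Y box and 2 Sp1 boxes. Srebf2 holds 1 NF-Y box, 4 Sp1 boxes and the shorter form TCACCCCA at 162 bases, a motif chosen after the sequences were seen that is part of the Hmgcs1 element and occurs in 1.34% of windows. Dhcr7 has 3 annotated starts, of which 1 has 2 NF-Y and 3 Sp1 boxes within 250 bases and another has the E-box CACGTG, found in 6.02% of windows. The windows of Idi1, Lss and Dhcr7 hold no match to either form of the sterol element. A match is a string of letters and was not tested as a binding site.

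Idi1 converts isopentenyl diphosphate to dimethylallyl diphosphate, the starter unit of isoprenoid chains. It read 10.86, 10.33 and 11.10 on the mutALK arrays and 9.66, 9.96, 9.60 and 9.88 on the MYCN arrays. The adrenal group had the highest mean, with arrays at 11.70, 10.92 and 11.29, of which adrenal 2 lay below mutALK 3, and double transgenic arrays read 10.64, 9.96 and 10.57. The MYCN arrays lay below all mutALK and all adrenal arrays, and double transgenic 2 all but met the highest of them. The level was higher in mutALK than in MYCN by 0.99 ± 0.24 (1.98-fold, adjusted p = 0.0077). Against adrenal the difference was -1.53 ± 0.24 in MYCN (adjusted p = 0.000186) and -0.91 ± 0.25 in double transgenic tumours (adjusted p = 0.0101). That in mutALK, -0.54 ± 0.25, was not called (adjusted p = 0.11), although it was when adrenal 2 was left out.

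Fdps joins isoprenoid units to farnesyl diphosphate, the branch point towards sterols, ubiquinone and protein prenylation. It read 11.93, 12.28 and 12.28 in mutALK, 11.01, 10.99, 10.62 and 10.77 in MYCN, and 10.88, 10.43 and 10.59 in double transgenic tumours. The adrenal arrays spread more widely, at 13.20, 11.09 and 12.19, with adrenal 2 the lowest. Here both models that carry MYCN lay together below mutALK, without overlap. Fdps was higher in mutALK than in MYCN by 1.32 ± 0.37 (2.49-fold, adjusted p = 0.0175), and lower than in mutALK where both transgenes were present, by a difference of -1.53 ± 0.39 (adjusted p = 0.0261). By the brightest probe sets it was the 1 member called between double transgenic and mutALK tumours, where 6.04% of all genes were called lower, 8.39% higher, and 0 members higher.

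The Fdps differences were sensitive to single arrays. The call of mutALK against MYCN was lost without mutALK 2 (1.26, adjusted p = 0.0615) or mutALK 3 (1.26, adjusted p = 0.0527), and that of double transgenic against mutALK was lost when any 1 of the mutALK arrays or double transgenic 2 or 3 was left out. Against adrenal, Fdps was lower in MYCN (-1.31 ± 0.37, adjusted p = 0.0104) and in double transgenic tumours (-1.53 ± 0.39, adjusted p = 0.00676). Without adrenal 1 these differences were -0.79 (adjusted p = 0.0332) and -1.01 (adjusted p = 0.0142). Between mutALK and adrenal it was 0.01 ± 0.39, a width that leaves a 95% interval of -0.85 to 0.87.

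Fdft1, squalene synthase, makes the first product committed to sterols. It read 11.28, 11.08 and 11.44 on the mutALK arrays and 10.21, 10.32, 10.13 and 10.41 on the MYCN arrays. In adrenal it was at 11.16, 11.85 and 10.68, and in double transgenic tumours at 11.09, 10.64 and 11.26. Every MYCN array was below every array of the other 3 groups, which overlapped each other. The level was higher in mutALK than in MYCN by 1.0 ± 0.24 (2.0-fold, adjusted p = 0.00778) and lower in MYCN than in adrenal (-0.96 ± 0.24, adjusted p = 0.0052). The double transgenic tumours were above MYCN by 0.73 ± 0.24, which was not called (adjusted p = 0.0694) but was without adrenal 2 (adjusted p = 0.0137) or adrenal 3.

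Sqle, squalene epoxidase, catalyses the first oxygen-requiring step of sterol synthesis. Its levels were 10.95, 10.67 and 11.03 in mutALK, 10.51, 10.55, 10.42 and 10.47 in MYCN, and 10.97, 10.60 and 11.00 in double transgenic tumours. Adrenal arrays read 10.76, 10.72 and 10.17, a range that takes in all MYCN arrays. Sqle thus had the smallest gap of the 7 enzymes between mutALK and MYCN, 0.39 ± 0.16 (1.31-fold), and the arrays separated although the fit did not call it (adjusted p = 0.0862). It was called without adrenal 3, which enters only through the shared spread, and with these groups fitted alone (adjusted p = 0.0263). No comparison of Sqle with adrenal was called, with differences of -0.07 ± 0.16 in MYCN, 0.33 ± 0.17 in mutALK and 0.30 ± 0.17 in double transgenic tumours. Between double transgenic and mutALK tumours it differed by -0.03 (95% interval -0.40 to 0.35).

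Lss, lanosterol synthase, closes the rings of the sterol skeleton. By its brightest probe set (1420013_s_at) it read 8.62, 8.76 and 9.39 in mutALK, 7.93, 8.33, 8.10 and 8.09 in MYCN, 8.41, 7.62 and 8.59 in double transgenic tumours and 9.17, 9.18 and 8.65 in adrenal. MYCN lay below mutALK and adrenal without overlap, and double transgenic 2 was the lowest array of all. The difference between mutALK and MYCN was 0.81 ± 0.25 (1.75-fold, adjusted p = 0.0298), that between MYCN and adrenal -0.88 ± 0.25 (adjusted p = 0.0114) and that between double transgenic tumours and adrenal -0.79 ± 0.27 (adjusted p = 0.0295). Single arrays decided calls of Lss as well. The first was lost without MYCN 1, 3 or 4 or mutALK 2 or 3 (0.58 without mutALK 3) and with the title number as a block (0.79, adjusted p = 0.0786), which left 4 of the 5 members called, and the last without adrenal 1 or 2 or double transgenic 2 (-0.50 without double transgenic 2, adjusted p = 0.125).

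Another Lss probe set gave a different picture of the adrenal gland. Probe set 1426913_at read 9.25, 9.64 and 9.98 in mutALK, 7.74, 7.67, 7.56 and 7.59 in MYCN, 8.69, 8.42 and 9.07 in double transgenic tumours and 7.82, 8.01 and 7.51 in adrenal. By it the tumours with mutALK, alone or with MYCN, lay above all MYCN and all adrenal arrays. In the fit over all 34945 probe sets it was higher in mutALK than in MYCN by 1.98 ± 0.19 (adjusted p = 4.69e-05) and in double transgenic than in MYCN tumours by 1.09 ± 0.19 (adjusted p = 0.0045). It was also higher than in adrenal by 1.84 ± 0.20 in mutALK (adjusted p = 3.54e-05) and by 0.94 ± 0.20 in double transgenic tumours (adjusted p = 0.00249), where the brightest set had differences of -0.08 and -0.79. MYCN and adrenal differed by -0.14 ± 0.19 (adjusted p = 0.591). Set against mutALK, double transgenic tumours were lower by this set, at -0.90 ± 0.20 (adjusted p = 0.0165), a difference the brightest set did not call (adjusted p = 0.101). Both probe sets placed mutALK above MYCN. They disagreed on adrenal and on double transgenic against MYCN tumours, where the brightest set had a difference of 0.09 ± 0.25 (adjusted p = 0.866). A dimmer Lss set, 1420014_at, stayed between 4.97 and 5.62 on all arrays, and which set reads Lss best was not tested.

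**Figure D2:**
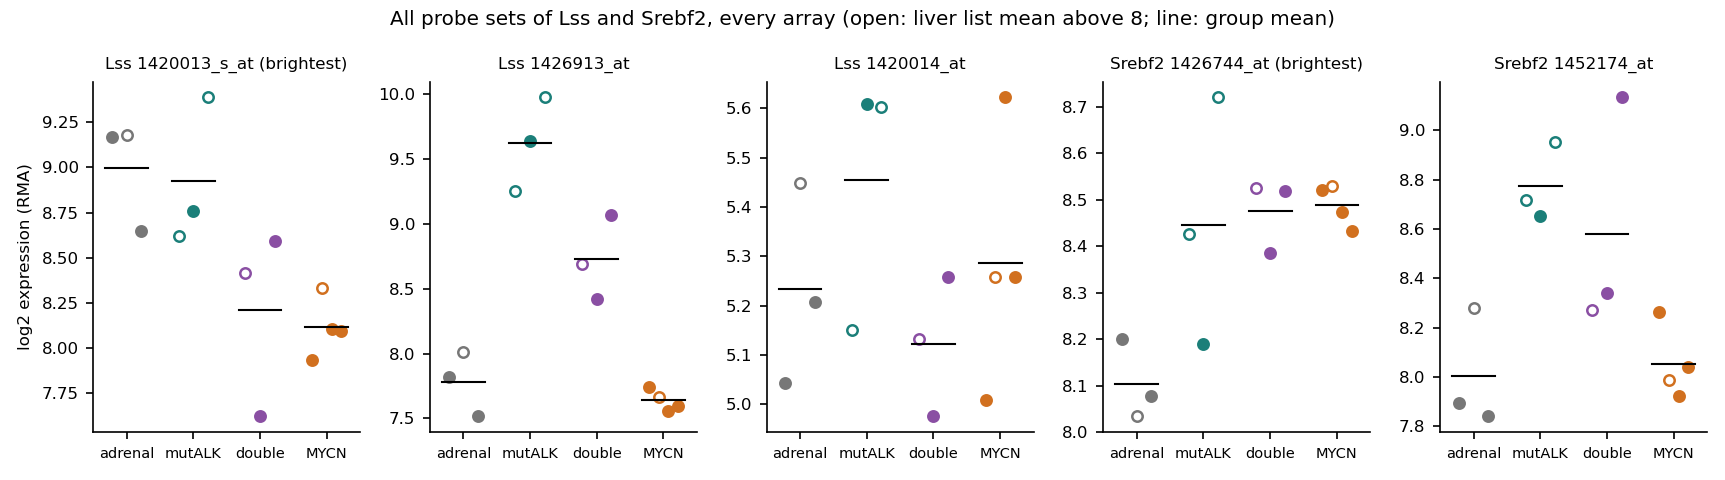
Levels (RMA, log2) on each array of the 3 Lss and 2 Srebf2 probe sets, a panel per probe set, a point per array (open where the liver gene mean was above 8) and a line at each group mean. For Lss, 1420013_s_at puts adrenal (8.65 to 9.18) above all MYCN arrays, while 1426913_at puts adrenal (7.51 to 8.01) among them, and both put mutALK above MYCN.

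Dhcr7 reduces the last double bond on the way to cholesterol. It was highest in adrenal, at 11.56, 10.51 and 11.99, against 9.59, 9.71 and 9.92 on the mutALK arrays, 9.21, 8.91, 8.72 and 9.0 on the MYCN arrays and 9.25, 8.56 and 9.25 on the double transgenic arrays. Every tumour array was below every adrenal array, and mutALK was above both models with MYCN. Dhcr7 fell against adrenal in all 3 models, with differences of -2.39 ± 0.30 in MYCN (adjusted p = 4e-05), -2.33 ± 0.32 in double transgenic (adjusted p = 9.46e-05) and -1.61 ± 0.32 in mutALK tumours (adjusted p = 0.00173). These were called under all 26 alternatives. Among the tumours, mutALK exceeded MYCN by 0.78 ± 0.30 (adjusted p = 0.0724). This was called without adrenal 2 (adjusted p = 0.00874) or adrenal 3, and with these groups fitted alone (adjusted p = 0.00479). Double transgenic minus mutALK was -0.72 ± 0.32 (adjusted p = 0.165), called without adrenal 2. Adrenal arrays enter these comparisons only through the shared spread.

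Srebf2, by its brightest probe set (1426744_at), did not separate mutALK from MYCN. It read 8.43, 8.19 and 8.72 in mutALK, 8.52, 8.53, 8.47 and 8.43 in MYCN, 8.53, 8.38 and 8.52 in double transgenic tumours and 8.20, 8.03 and 8.08 in adrenal. The tumour groups overlapped each other, and mutALK 2 fell within the adrenal range. Adrenal arrays were all female by their sex-linked genes and the tumours mixed. Against adrenal the gene was higher by 0.38 ± 0.12 in MYCN (adjusted p = 0.0161), 0.37 ± 0.13 in double transgenic (adjusted p = 0.0276) and 0.34 ± 0.13 in mutALK tumours (adjusted p = 0.046). Between mutALK and MYCN it differed by -0.04 ± 0.12 (95% interval -0.30 to 0.21). The mutALK call was lost in 22 of 26 alternatives, at 0.20 without mutALK 3 and at 0.05 without the 5 arrays high in liver genes, and the double transgenic call without adrenal 2 or 3 or double transgenic 1 or 3. With sex as a covariate the MYCN and double transgenic differences were both 0.28 (adjusted p = 0.13 and 0.137), and with the title number as a block their adjusted p were 0.0523 and 0.0653, so that neither was called. The MYCN call was also lost with the mean of probe sets (0.22, adjusted p = 0.208).

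The other Srebf2 probe set, 1452174_at, put mutALK above MYCN. It read 8.72, 8.65 and 8.96 in mutALK, 8.26, 7.99, 7.92 and 8.04 in MYCN, 8.27, 8.34 and 9.13 in double transgenic tumours and 7.90, 8.28 and 7.84 in adrenal. The mutALK arrays lay above all MYCN and adrenal arrays, as the enzymes did against MYCN. In the fit over probe sets it was higher in mutALK than in MYCN by 0.72 ± 0.20 (adjusted p = 0.0187) and than in adrenal by 0.77 ± 0.21 (adjusted p = 0.0134), while MYCN and adrenal differed by 0.05 ± 0.20 (adjusted p = 0.874). Whether the 2 probe sets read different transcripts of Srebf2 was not tested.

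The other 3 bright Hmgcs1 sets were called higher in mutALK than in MYCN by 1.2 to 1.57, the second Fdft1 set (1448130_at) by 1.04 and the second Idi1 set (1423804_a_at) by 0.79, the last with arrays that overlapped. The dim sets of Hmgcs1 (1441536_at, 3.65 to 5.90), Fdft1 (1438918_at, 5.08 to 5.79, and 1438919_x_at, 4.77 to 5.27) and Fdps (1438150_at, 2.43 to 2.87) read low on all 13 arrays. In double transgenic against mutALK tumours, 2 of the Hmgcs1 sets were called lower where the brightest was not, 1433445_x_at (-0.55, adjusted p = 0.043) and 1433446_at (-0.66, adjusted p = 0.05 after rounding, just under the threshold). The dim 1441536_at was called higher in double transgenic tumours against MYCN (1.28, adjusted p = 0.0457). Of all 20 probe sets, 12 were called higher in mutALK than in MYCN (beside 12.2% of all probe sets), 6 exceeded MYCN in double transgenic tumours (beside 5.61%) and 4 lower in double transgenic than mutALK tumours (beside 6.54%). Against adrenal, MYCN had 11 called lower and 1 higher (beside 22% and 25.4%), double transgenic 9 and 3 (beside 22.6% and 23.6%) and mutALK 1 and 2 (beside 18.5% and 20%). The probe sets of a gene share its transcripts and are not independent of each other.

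Set against normal adrenal gland, the models differed in how many members were called, and all 3 comparisons share the same 3 adrenal arrays. In MYCN tumours 6 of 8 members were called lower (all enzymes except Sqle, beside 24.8% of all genes) and 1, Srebf2, higher (beside 25.4%). Double transgenic tumours had 5 called lower (Hmgcs1, Idi1, Fdps, Lss and Dhcr7, beside 24.2%) and Srebf2 higher (beside 24.3%). In mutALK tumours Dhcr7 was called lower (beside 21%) and Srebf2 higher (beside 21.3%), and the other 6 differed by -0.54 to 0.33. The members' median differences were -1.13, -0.71 and -0.004, beside -0.02, -0.03 and 0.002 for all genes. Without adrenal 2 the double transgenic tumours had 3 members called in place of 6, and MYCN had 7 called whichever array was left out. The single higher call in MYCN, Srebf2, was lost with the title number as a block or sex as a covariate (6 members called lower each) and with the mean of probe sets (5 called lower). For mutALK, array weights gave 3 called lower (Idi1, Fdps and Dhcr7) and 0 higher, leaving out adrenal 2 gave 2 lower and 0 higher, and the mean of probe sets gave 2 higher, Lss and Srebf2, and 1 lower.

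**Figure D3:**
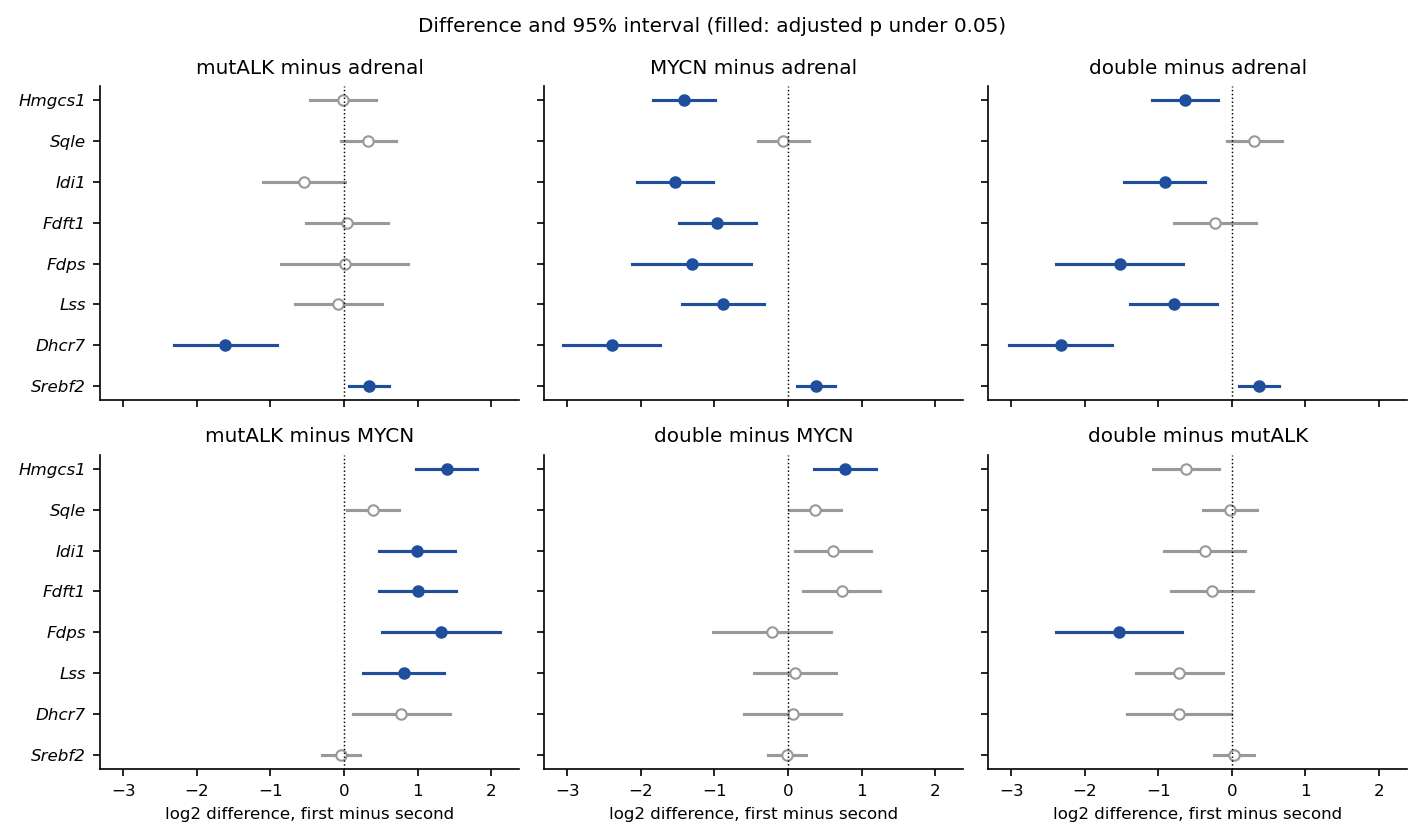
Differences between groups (log2, first minus second) for the 8 members in the 6 comparisons, with a point at the estimate, a line for the 95% interval and filled points for calls at an adjusted p under 0.05. For the enzymes the mutALK minus MYCN points are all above 0, from 0.39 for Sqle to 1.40 for Hmgcs1, and Dhcr7 is below 0 against adrenal in all 3 models.

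The double transgenic tumours did not hold 1 fixed place between the single models. Against MYCN, 4 enzymes (Hmgcs1, Sqle, Idi1 and Fdft1) lay above on every array, a separation that 14.3% of all genes showed, and 1 of them, Hmgcs1, was called higher, beside 6.16% of all genes; 0 members were called lower, beside 6.66%. By their brightest probe sets, Fdps, Lss and Dhcr7 lay instead below mutALK on every array, as 16% of all genes did, and differed from MYCN by -0.22 ± 0.37, 0.09 ± 0.25 and 0.06 ± 0.30. The 95% intervals of these differences, -1.02 to 0.59 for Fdps, -0.46 to 0.65 for Lss and -0.60 to 0.72 for Dhcr7, still allow sizable gaps. By its other bright probe set, 1426913_at, Lss was above MYCN on every array, by 1.09 ± 0.19 (adjusted p = 0.0045 in the fit over probe sets). The place of Lss thus depended on the probe set. Leaving out 1 array gave 0 to 2 members called in either comparison. Double transgenic 2 was the lowest of its group in all 8 members.

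Some tissue and cell markers differed between the groups, while others varied within them or overlapped. The mean of the liver genes was lowest in its group on mutALK 2 (5.19) and double transgenic 2 (4.73), arrays that were also the lowest of their group in Hmgcs1, Sqle, Idi1, Fdft1 and Srebf2. In Fdps, Lss and Dhcr7 the lowest mutALK array was instead mutALK 1, with a liver mean of 10.59. MYCN 3, with the lowest liver mean of its group (4.83), was the lowest MYCN array in every enzyme except Lss, but not in Srebf2. Adrenal 3 (5.91, beside 5.94 on adrenal 1) was the lowest adrenal array in Hmgcs1, Sqle, Fdft1 and Lss. In Idi1, Fdps, Dhcr7 and Srebf2 the lowest adrenal array was adrenal 2, with a liver mean of 10.85. The part of liver transcripts in these levels was not tested. With the liver mean as a covariate, 4 members were called higher in mutALK than in MYCN (Lss was lost, 0.69, adjusted p = 0.0661). Without the 5 arrays high in liver genes, which leaves mutALK 2 as the sole mutALK array with its spread taken from the other groups, 2 were called, Hmgcs1 (1.0, adjusted p = 0.0449) and Fdps (1.48, adjusted p = 0.0292). Idi1 (0.62), Fdft1 (0.82) and Lss (0.72) stayed above 0 without a call. In MYCN against adrenal 6 members remained called on those arrays.

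Schwann cell genes (5 of 7 measured) had means of 6.72 to 8.35 on the mutALK arrays and 5.74 to 6.28 on the MYCN arrays. Genes of mitosis (7 of 8 measured) ran the other way, at 11.16 to 11.43 in MYCN, 10.71 to 11.20 in double transgenic and 9.61 to 10.53 in mutALK tumours. Neuronal genes (9 of 9) had means of 12.26 to 12.43 in mutALK and 11.24 to 11.65 in MYCN, and macrophage genes (7 of 7) of 9.13 to 10.04 and 8.43 to 9.34. Sympathoadrenal genes separated mutALK from MYCN in the same direction, as given above. So did a list of 3 genes named for adrenaline cells (Pnmt, Pcsk1 and Npy), at 7.83 to 8.04 against 6.67 to 7.38. Whether this mean reads adrenaline cells was not tested. The adrenal arrays were in addition rich in adipocyte genes (5 of 7), at 9.92 to 11.89 against 4.35 to 8.51 in the tumours. Endothelial genes (7 of 7) overlapped between mutALK (6.29 to 7.08) and MYCN (6.02 to 7.44). They were at 8.80 to 8.86 in adrenal and 4.98 to 5.61 in double transgenic tumours. RMA levels have no zero, and no marker was at the level of Y-linked genes in female arrays throughout a group. The part of these cells in the differences was not tested.

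Among the other enzymes of the route, more were called higher than lower in mutALK against MYCN. Of 11 measured genes of sterol synthesis outside the members (14 listed, the rest not analysed here), 6 were higher and 1 lower by the test, beside 13.6% and 17.2% of all genes. Their median difference was 0.66. Tm7sf2, a sterol reductase, was at 8.73 in mutALK and 7.23 in MYCN (difference 1.49 ± 0.19, adjusted p = 0.000182), and Nsdhl, a sterol dehydrogenase, at 9.76 and 8.51 (1.25 ± 0.26, adjusted p = 0.00353). Mvd of the mevalonate steps (1.12 ± 0.36, adjusted p = 0.0344) and Msmo1, a sterol oxidase (1.05 ± 0.25, adjusted p = 0.00835), were also higher. The Mvd call was lost without mutALK 2 or 3 or any 1 MYCN array. That of Msmo1 was lost with the mean of probe sets (adjusted p = 0.0842). Lbr, a nuclear envelope protein with the same reductase activity as Tm7sf2, was higher in MYCN, at 10.97 against 10.12 (difference -0.85, adjusted p = 0.0115).

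Against adrenal the same list had 8 genes called lower and 1 higher in MYCN, 6 and 1 in double transgenic and 4 and 1 in mutALK tumours, with Lbr the 1 that rose in each. In that order, 24.8%, 24.2% and 21% of all genes were called lower, and 25.4%, 24.3% and 21.3% higher. Msmo1 fell in these 3 models with differences of -2.24, -1.41 and -1.19, and Sc5d, a sterol desaturase, with differences of -2.12, -1.62 and -1.45. The Msmo1 call in mutALK tumours was lost with the mean of probe sets (adjusted p = 0.118). The mean of Tm7sf2 in double transgenic tumours lay between the single models, above MYCN by 0.67 ± 0.19 (adjusted p = 0.0388) and below mutALK by a difference of -0.83 ± 0.20 (adjusted p = 0.0208). The call against MYCN was lost in 16 of 26 alternatives, with the title block and without any 1 of the MYCN or mutALK arrays or double transgenic 1 or 3, and that against mutALK without mutALK 1 or 2 or double transgenic 2. Adrenal cortex and adipocyte genes were high on the same adrenal arrays, as given above.

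Of 8 measured genes that sense sterols and release SREBP (10 listed), 1 was called higher and 2 lower in mutALK than in MYCN, with a median of -0.12. These shares are near the 13.6% and 17.2% of all genes. Insig2, which holds the SREBP complex in the endoplasmic reticulum, was higher in mutALK by 1.07 ± 0.14 (adjusted p = 0.000197) and stood between in double transgenic tumours, at 8.98 against 9.53 and 8.46. Mbtps1, the protease that cuts SREBP before Mbtps2, was lower in mutALK (-0.85 ± 0.13, adjusted p = 0.00051), as was Scap, the escort of SREBP (-0.41 ± 0.13, adjusted p = 0.0322), whose call was lost in 10 of 26 alternatives, among them the title block and each fit without mutALK 1 or 3 or MYCN 2, 3 or 4. Against adrenal, Insig1, a partner of Insig2, and Srebf1, which encodes the related SREBP1, fell in all 3 models, with differences of -1.79 and -1.57 in MYCN, -1.89 and -1.76 in double transgenic and -1.62 and -1.5 in mutALK tumours. Mbtps2, the protease that cuts after Mbtps1, was higher than in adrenal by 0.99, 1.27 and 0.69 in that order, the last lost without mutALK 1 or 3.

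Most uptake genes were lower in MYCN and double transgenic tumours than in adrenal. Of 10 measured (13 listed), 8 were called lower and 1 higher in MYCN than in adrenal, 7 and 1 in double transgenic and 3 and 1 in mutALK tumours, beside the shares of all genes given for the members. Scarb1, the receptor for high-density lipoprotein that feeds steroid-making cells, fell from 12.93 in adrenal to 9.22 in MYCN, 8.20 in double transgenic and 7.87 in mutALK tumours, differences of -3.71, -4.73 and -5.06. Lrp8, an apolipoprotein E receptor of neurons, rose from 5.61 in adrenal to 9.39, 9.74 and 8.82 in the same order. Lipa, the lysosomal lipase that frees cholesterol from its esters, fell with differences of -2.39, -2.54 and -2.04.

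Between mutALK and MYCN, 3 of 10 uptake genes were called higher and 1 lower, beside 13.6% and 17.2% of all genes. Lrp1, a scavenger receptor (1.05 ± 0.21, adjusted p = 0.00306), Npc1, which exports cholesterol from lysosomes (0.76 ± 0.16, adjusted p = 0.0032), and Stard4, a sterol carrier (0.69 ± 0.16, adjusted p = 0.00748), were higher in mutALK, and Scarb1 was lower (-1.35 ± 0.42, adjusted p = 0.0281), a call lost with the title block and without mutALK 2 or 3 or MYCN 2, 3 or 4. Between double transgenic and MYCN tumours 0 of 10 were called by limma, beside 6.16% of all genes higher and 6.66% lower, and 1 had an unadjusted p under 0.05. Against mutALK the double transgenic tumours had more Lrp8 (0.92 ± 0.25) and less Lrp1 (-1.23 ± 0.23) and Stard4 (-0.60 ± 0.17). Of these, Lrp1 lost its call in 2 of 26 alternatives, Lrp8 in 8 (with the title block, and without mutALK 1 or 2 or any 1 double transgenic array among them) and Stard4 in 17 (with the title block and without any 1 tumour array except MYCN 1 among them).

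Of 9 measured genes of cholesterol efflux and storage (11 listed), 3 were called higher and 0 lower in mutALK than in MYCN tumours, beside 13.6% and 17.2% of all genes. Apoe, the main lipid carrier protein of the nervous system and of macrophages, was at 12.67 in mutALK and 10.97 in MYCN (1.71 ± 0.35, adjusted p = 0.00318). Nceh1, a cholesteryl ester hydrolase, differed by 1.06 ± 0.36 (adjusted p = 0.0418) and Cyp46a1, the neuronal enzyme that hydroxylates cholesterol for removal, by 0.71 ± 0.21 (adjusted p = 0.0246). Their calls were lost in 12 and 7 of the alternatives, each with the title block and without mutALK 1 or 2 or MYCN 1, 2 or 3, and that of Nceh1 also without MYCN 4 or any 1 double transgenic array. Against adrenal, where steroid-making cells store cholesterol as esters, Lipe, a lipase of such stores, fell with differences of -3.77 in MYCN, -4.44 in double transgenic and -4.42 in mutALK tumours. Adipocyte genes were high on the same adrenal arrays, as given above, and their part in the fall of Lipe was not tested. Abca1, a cholesterol exporter, fell with differences of -1.93 in MYCN, -1.79 in double transgenic and -1.26 in mutALK tumours. Abcg1 of the same list was called higher than adrenal in MYCN tumours (1.36, adjusted p = 0.00107) and mutALK tumours (1.06, adjusted p = 0.0102). Of the 9 genes, 4 were called lower and 1 higher than adrenal in MYCN tumours. The counts were 4 and 0 in double transgenic and 3 and 2 in mutALK tumours, beside the shares of all genes given for the members.

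**Figure D4:**
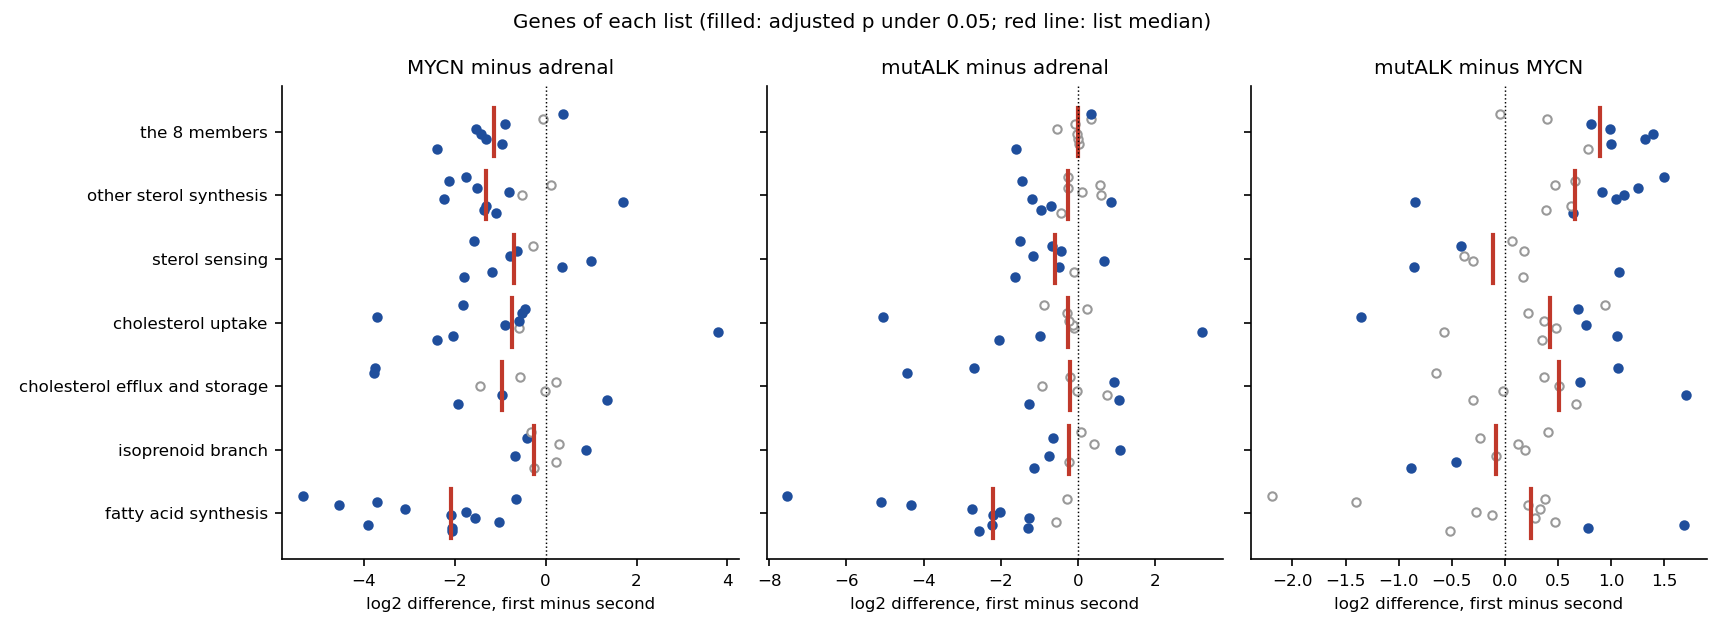
Log2 differences of the measured genes of each list for MYCN and mutALK tumours against adrenal and against each other, a point per gene, filled where called at an adjusted p under 0.05, with a red line at the list median. In mutALK minus MYCN the members (median 0.90) and the other genes of sterol synthesis (median 0.66) lie mostly above 0, and the sterol sensing genes (median -0.12) lie on both sides.

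The genes whose levels ran most like the mean of the 8 members over the 13 arrays were led by others of the route. Tm7sf2 and Nsdhl had Pearson correlations of 0.909 each and Stard4 of 0.896, followed by Resp18, Copa, Slc18a1, Slc35f5 and Zfand2b at 0.894 to 0.883. These values share arrays and group differences and are a description only. The members themselves correlated with that mean, which includes them, at 0.62 (Sqle) to 0.93 (Hmgcs1) for the enzymes and at -0.15 for Srebf2. Once group means were removed, Srebf2 correlated with that mean at 0.83, Idi1 at 0.91 and Dhcr7 at 0.42.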

How the data were processed

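The authors deposited log2 values of 45101 probe sets on 13 arrays, summarised by RMA (background correction, quantile normalization, probe summary) in Partek per the submitters' processing notes, which give no versions. Detection calls and scanner values were not used here, so depth is expressed only by the number of arrays, and whether 1 RMA run covered all arrays is not stated.

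Groups were taken from the labels. Each gene was read by the probe set with the highest mean over all arrays, among the 34945 with 1 symbol. With a mean for each group, 18193 genes were fitted in limma 3.58.1 in R 4.3.3 (lmFit, contrasts, eBayes, 9 residual and 2.28 prior degrees of freedom), tested two-sided and adjusted by Benjamini-Hochberg. A second fit took every probe set on its own. No set test was run. Promoter letters came from RefSeq, build GRCm38.p6. The fits were checked on simulated data.

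The members, gene lists and tests were chosen with earlier results of these data known. List genes were named from the up to 4 called genes per list and comparison with the largest differences. Not all of these were described, and Lbr was added for mutALK against MYCN. The 8 genes most like the members in each of 2 profile rankings were also named. Alternatives were other normalizations and probe set rules, dim genes left out, array weights, groups fitted alone, the title number as a block (2 such numbers are shared by 2 arrays each), sex read from the data, the liver mean, and arrays left out singly or together. The plots used Python 3.11.15 and matplotlib 3.10.9.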

Additional observations from a re-analysis of the deposited data

How the results depend on the processing

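Over 26 alternatives, the 48 member differences gave 1248 values, of which 1093 kept their direction and side of the threshold, 76 lost a call, 23 gained one and 56 changed sign. The 7 enzymes were above 0 in mutALK against MYCN in 182 of 182 alternative values, of which 125 were called, and below 0 in MYCN against adrenal in 179 of 182, the exceptions being Sqle. Neither these values nor the 1248 are independent. Fits that alter only the features or the estimate of the spread return the main difference unchanged. So do fits without an array of a group outside the comparison. In such fits the direction was fixed in advance, and only the adjusted p could change.

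The number of members called between mutALK and adrenal, 2, became 3 with the mean of probe sets (2 higher) and with array weights (all lower), stayed 2 (both lower) without the liver-high arrays and without adrenal 2 and double transgenic 1, and became 1, lower, with every probe set on its own, arrays centred on their median, a variance trend, the groups alone, the title number as a block, sex or the liver mean as covariate. The 7 in MYCN against adrenal became 6 with the title block, with sex, without adrenal 2 and double transgenic 1 (0 higher in each) and without the liver-high arrays, and 5 with the mean of probe sets (0 higher). Between double transgenic tumours and adrenal 6 became 3 with the groups alone, without the 5 liver-high arrays and without adrenal 2 and double transgenic 1 together. Between mutALK and MYCN 5 became 2 without the liver-high arrays. Between double transgenic and MYCN tumours 1 became 2 without the dimmest 40% of genes, with array weights, with the groups alone and without adrenal 2 and double transgenic 1, and 0 with the title block and without the liver-high arrays. Between double transgenic and mutALK tumours 1 became 2 with the mean of probe sets, without the dimmest 40% and without adrenal 2 and double transgenic 1. Of the 57 list genes, the 4 called between double transgenic and MYCN tumours became 13 with array weights, 11 with the groups alone and 1 with the title block, and the 11 called between double transgenic and mutALK tumours became 4, 3 and 4 with the groups alone, the title block and sex. The up to 4 called genes per list and comparison with the largest differences, described here or not, were followed through the alternatives. Against adrenal, 17 of 24 in mutALK, 21 of 23 in MYCN and 22 of 22 in double transgenic tumours kept their call under every alternative. So did 8 of 18 in mutALK against MYCN, 0 of 4 in double transgenic against MYCN and 1 of 11 against mutALK. Leaving out 1 array gave 1 to 2 members for mutALK, 7 for MYCN and 3 to 6 for double transgenic tumours against adrenal, 3 to 7 for mutALK against MYCN, and 0 to 2 for double transgenic tumours against either single model. List genes ranged from 0 to 10 for double transgenic against MYCN and from 2 to 16 against mutALK.

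Changes of sign touched differences near 0, apart from those of averaged probe sets and of Fdps. With the mean of all probe sets, mutALK minus adrenal was 0.11 for Hmgcs1, -0.022 for Fdft1, -0.015 for Fdps and 0.66 for Lss (adjusted p = 0.0149). The same setting gave 0.014 for Lss in double transgenic tumours minus adrenal, and for Srebf2 0.34 in mutALK minus MYCN, 0.26 in double transgenic minus MYCN and -0.081 in double transgenic minus mutALK. Fdps in mutALK minus adrenal was -0.84 with array weights (adjusted p = 0.0392), -0.41 without the liver-high arrays, -0.53 without adrenal 2 and double transgenic 1, -0.0015 with quantile normalization repeated, -0.014 with centring and -0.024 with the title block. Without adrenal 2 and double transgenic 1, mutALK minus adrenal was 0.025 for Hmgcs1 and 0.015 for Lss, MYCN minus adrenal 0.020 for Sqle, double transgenic minus adrenal 0.036 for Fdft1, and double transgenic minus MYCN -0.010 for Lss and -0.052 for Dhcr7. Without the liver-high arrays, Sqle was 0.13 in double transgenic minus mutALK, Fdft1 0.036 in double transgenic minus adrenal and Dhcr7 -0.068 in double transgenic minus MYCN. The liver covariate gave 0.014 for Sqle in double transgenic minus mutALK and -0.019 for Fdft1 in mutALK minus adrenal. Hmgcs1 in mutALK minus adrenal was 0.017 with the title block, Lss in double transgenic minus MYCN -0.010 with array weights, and Srebf2 in double transgenic minus mutALK -0.025 with quantile normalization repeated and -0.014 with sex, which gave 0.013 for it in mutALK minus MYCN. Leaving out 1 array, differences that changed sign ranged in mutALK minus adrenal from -0.14 to 0.19 for Hmgcs1, -0.24 to 0.35 for Fdft1, -0.53 to 0.53 for Fdps and -0.31 to 0.075 for Lss. In MYCN minus adrenal Sqle ranged from -0.26 to 0.040, and in double transgenic minus adrenal Fdft1 from -0.51 to 0.082. In double transgenic minus MYCN the ranges were -0.052 to 0.29 for Dhcr7, -0.10 to 0.39 for Lss and -0.037 to 0.034 for Srebf2, in double transgenic minus mutALK -0.13 to 0.10 for Sqle and -0.10 to 0.17 for Srebf2, and in mutALK minus MYCN -0.18 to 0.084 for Srebf2. The cause of these changes was not tested. No paired analysis was possible because the labels give no number that is shared between groups. With 3 or 4 arrays a group, the number of arrays limits the precision, and signal over background was not analysed.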

Other observations

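Of 7 measured genes of the branch that leads from the cholesterol route to other isoprenoids (9 listed), limma called 0 higher and 2 lower in mutALK than in MYCN tumours, with 2 at an unadjusted p under 0.05. Shares of 13.6% and 17.2% of all genes leave these counts near the background. The 2 were Coq2, which attaches the side chain of ubiquinone (9.0 against 9.88, difference -0.89 ± 0.15, adjusted p = 0.00099), and Dhdds, of dolichol synthesis (-0.46 ± 0.11, adjusted p = 0.00667). Coq2 was higher in double transgenic than in mutALK tumours by 0.94 ± 0.16 (adjusted p = 0.00459), and Pdss2, another gene of ubiquinone synthesis, by 0.44 ± 0.12 (adjusted p = 0.0317). Coq2 kept this call under all 26 alternatives, and Pdss2 lost it in 12, the title block and each fit without any 1 mutALK array or double transgenic 1 or 2 among them. Fntb, a subunit of protein farnesyltransferase, was above adrenal by 0.89 in MYCN, 0.88 in double transgenic and 1.09 in mutALK tumours, and Fnta, its partner subunit, was below it, with differences of -0.66, -0.60 and -0.75 in that order. Between double transgenic and MYCN tumours limma called 0 of 7, with 1 at an unadjusted p under 0.05, beside 6.16% of all genes called higher and 6.66% lower.

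Fatty acid synthesis set adrenal apart from all tumours. Of 12 genes, 12 were called lower than adrenal in MYCN, 11 in double transgenic and 10 in mutALK tumours, with medians of -2.08, -1.97 and -2.21. The shares of all genes called lower were 24.8%, 24.2% and 21% in that order. Thrsp, a lipogenic protein, was at 13.30 in adrenal against 7.97, 7.21 and 5.77 in that order, and Me1, which supplies reducing power for lipid synthesis, at 13.21 against 8.66, 8.61 and 8.88. Scd1, a fatty acid desaturase, was at 13.92 against 10.21, 9.60 and 8.81. The tumour arrays spread widely. Scd1 ran from 8.51 to 12.60 in MYCN, 8.41 to 11.36 in double transgenic and 7.48 to 11.36 in mutALK tumours. Thrsp ran from 6.26 to 11.19 in MYCN tumours. The Scd1 call in MYCN was lost with sex as a covariate (adjusted p = 0.161). The adipocyte list was high on the same adrenal arrays (9.92 to 11.89), and its part was not tested. Between mutALK and MYCN, 2 of the 12 were called, both higher in mutALK (beside 13.6% of all genes) and both of acetyl-CoA supply: Acss2 by 1.69 ± 0.49 (adjusted p = 0.0217) and Acly by 0.78 ± 0.15 (adjusted p = 0.00197). Acly fell short of its mutALK level in double transgenic tumours (-0.54 ± 0.16, adjusted p = 0.0406). The Acss2 call was lost without mutALK 1 or 2 or MYCN 1 or 2, and the Acly call in double transgenic tumours in 13 of 26 alternatives, the title block and each fit without mutALK 1 or 2, MYCN 2, adrenal 1 or 3 or double transgenic 1 or 2 among them. Between double transgenic and MYCN tumours limma called 0 of 12, with 1 at an unadjusted p under 0.05, beside 6.16% of all genes called higher and 6.66% lower.

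After group means were removed, the genes outside the members that correlated most with the mean of the 8 members over 13 arrays were Klrb1a, Bnip1, Fbxl12os, Pcsk4, Lypd5, Hlcs, Sox12 and Gpr39, with Pearson values of 0.887 to 0.832. None of them is a gene of the lists used here, in contrast to the ranking on levels, which Tm7sf2 and Nsdhl led. Klrb1a, the first of the 8, had group means of 2.73 to 2.91. That is about the level of Y-linked genes in female arrays (2.73 to 3.53).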
